A study of Mus musculus with 9 samples.

Results

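Cells sorted for green fluorescence from 2 neurogenic regions of the adult mouse brain, the subventricular zone (SVZ) and the hippocampus, were compared on Agilent arrays read in 1 colour. Arrays were taken by their titles, SVZ Sox2 A, B and C and Hip Sox2 A, B and C, which are 6 of the series' 9 arrays. The other 3 arrays hold hippocampal cells of a DCX-DsRed line. Both groups compared here came from Sox2-GFP mice, in which the Sox2 promoter drives green fluorescent protein, so the gate collects every cell type in which that promoter is active. Mice were 6 to 8 weeks old, no treatment is named, tissue from 10 dissections was pooled per experiment, and RNA of 1000 cells was amplified before labelling. The labels do not say that replicates came from separate pools, so the tests below see the spread among these arrays alone, and that spread may be technical.

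Sox2 is a transcription factor of neural stem and progenitor cells that astrocytes and ependymal cells can also express. In the SVZ, stem cells resembling astrocytes line the lateral ventricle next to ciliated ependymal cells, and give rise through dividing progenitors to neuroblasts that migrate to the olfactory bulb. In the hippocampus, stem cells of the dentate gyrus give rise to granule neurons, and the choroid plexus, the secretory epithelium that makes cerebrospinal fluid, is attached along the hippocampal margin and also hangs in the lateral ventricle beside the SVZ. Choroid plexus epithelium arises from the dorsal midline of the embryonic forebrain, next to the cortical hem, while most SVZ stem cells of the lateral wall arise from the subpallium.

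Levels are given in log2 units relative to the 75th percentile of each array's processed signal, so 0 is that percentile and a step of 1 is a factor of 2. Levels of different genes come from different probes and are not compared with each other. Between 80.2% and 88.3% of probes were well above background on each of the 6 arrays. The arrays did not sort by region over all genes. Hippocampal A and B, which shared a slide, correlated at 0.919 across genes, and both correlated with the SVZ arrays at 0.824 to 0.847. Hippocampal C correlated with the other hippocampal arrays at 0.816 and 0.783 and with the SVZ arrays at 0.718 to 0.720. SVZ arrays correlated with each other at 0.820 to 0.840. Hippocampal C lay below both A and B in 56.7% of genes and above both in 29.4%, and SVZ C lay below both SVZ A and B in 37.2% and above both in 28.4%. For that reason values are given array by array.

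Sox2 itself was well above background on all 6 arrays. Its level was 0.94, 2.09 and 2.30 on SVZ A, B and C and 0.96, 0.94 and -0.92 on hippocampal A, B and C. The groups overlapped, and the difference of 1.45 ± 0.59 (log2, SVZ minus hippocampus, SE) did not pass the test (adjusted p = 0.432). Sox9, a transcription factor of neural stem cells and astrocytes, was at 1.97, 2.33 and 2.92 in the SVZ and at 2.41, 2.40 and 2.52 in the hippocampus, so hippocampal C did not stand apart for it. Of the 34 quiescent stem cell and astrocyte genes tested, all 34 were well above background on every array except hippocampal C, where 33 were. Most genes tested were too, from 22505 of 24891 on hippocampal C to 24012 on SVZ A. The count for these markers is therefore not particular to them.

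The comparison of the regions gave far more genes lower in the SVZ cells than higher. Of 24891 genes tested, 99 passed an adjusted p under 0.05 in limma (0.398%), 88 lower in the SVZ (0.354%) and 11 higher (0.0442%). Without adjustment, 2690 genes (10.8%) had a p under 0.05. The 3 arrays of each region did not overlap in 8.1% of genes on the lower side and in 8.83% on the higher side, and the median difference over all genes was 0.07, with 54.4% of genes higher in the SVZ and 45.6% lower. The calls rest on pooling the spread with the DCX-DsRed arrays: 8 genes passed with the 6 Sox2-GFP arrays alone, and 25 with hippocampal A left out. Left out singly, SVZ A and SVZ B brought the count to 62 and 59. Slide is tangled with region. Hippocampal A and B were alone on slide 2, SVZ A lay on slide 1, and slide 3 held SVZ B, SVZ C and hippocampal C. With slide as a fixed block, in which hippocampal A and B add to the estimate of the spread and not to the difference, 2128 genes passed (1355 higher and 773 lower), among them 95 of the 99. Within slide 3 alone none passed in limma with 1 residual degree of freedom, where 4205 had an unadjusted p under 0.05.

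**Figure D1:**
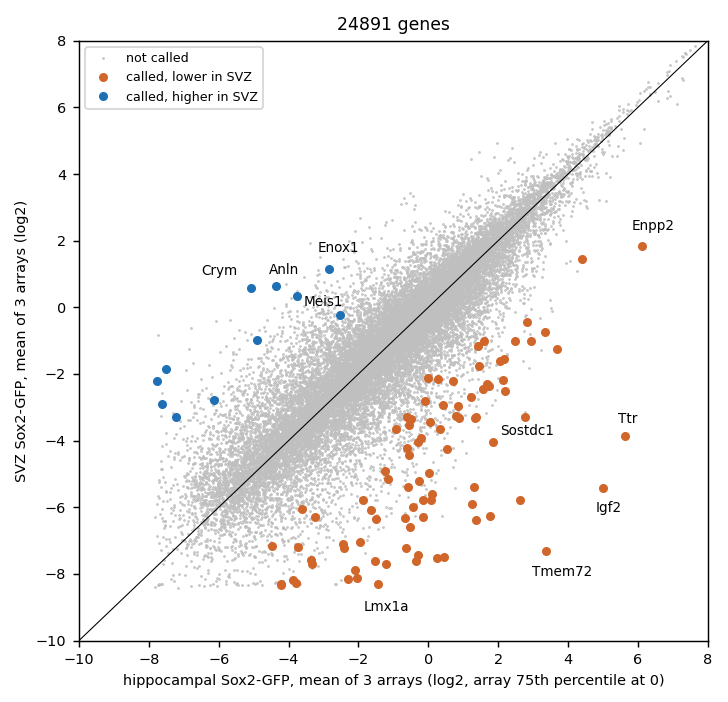
Each point is 1 of 24891 genes, placed by its mean level on 3 hippocampal arrays (x axis, log2) and on 3 SVZ arrays (y axis, log2), and the line marks equal levels. Orange points are the 88 genes called lower in the SVZ, which reach farther from the line than the 11 called higher (blue).

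Among the genes with the largest called differences, Igf2, a secreted growth factor of the insulin family, had the lowest adjusted p. Its level was -5.35, -5.91 and -5.02 on SVZ A, B and C and 4.64, 4.39 and 5.96 on hippocampal A, B and C. Every hippocampal array was far above every SVZ array, where Igf2 was well above background on 2 of 3. The difference was -10.43 ± 0.47 (log2, SE, adjusted p = 0.000306), and both of its probes went the same way. It was called in 19 of 20 alternative settings (adjusted p from 2.96e-05 to 0.176), the exception being slide 3 alone, where the difference was -11.43. On the 3 arrays of hippocampal DCX-DsRed cells Igf2 was at -7.01, -6.63 and -6.57 and well above background on none.

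Of the lists examined, choroid plexus epithelial genes held the most calls. Of 28 tested (29 listed, Igf2 among them), 11 passed as lower in the SVZ (0.354% of all genes) and none as higher, and the median difference was -3.93 against 0.07 over all genes. Hippocampal and SVZ arrays did not overlap for 23 of the 28 on the lower side (8.1% of all genes) and for 1, Cldn3, on the higher side (8.83% of all genes). The median level of the list was -1.58, -2.02 and -1.97 on SVZ A, B and C and 1.80, 1.03 and 3.10 on hippocampal A, B and C. Its summed level (log2 of the members' added linear values) ran from 3.86 to 4.33 in the SVZ and from 7.35 to 8.91 in the hippocampus. Hippocampal C was above both A and B for 25 of the 28 genes, against 29.4% of all genes. In sorted bulk samples, fewer cells of a type and less RNA per cell cannot be told apart.

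Among the called members were genes of secreted proteins. Ttr, the carrier of thyroid hormone and retinol-binding protein made by the choroid plexus, was at -2.06, -4.69 and -4.82 in the SVZ and at 5.42, 5.05 and 6.45 in the hippocampus. SVZ A was the highest of the SVZ arrays for Ttr, yet lay well under each hippocampal array. The difference was -9.50 ± 1.14 (adjusted p = 0.0167). Enpp2 (autotaxin), the secreted enzyme that makes lysophosphatidic acid, was at 1.73, 2.35 and 1.43 in the SVZ and at 5.90, 5.72 and 6.75 in the hippocampus, a difference of -4.29 ± 0.40 (adjusted p = 0.00842). Enpp2 is also a gene of myelinating oligodendrocytes, and it was the only one of the 24 tested members of that list to be called (0.398% of all genes). Sostdc1, a secreted antagonist of BMP and Wnt signals, was at -4.03, -3.72 and -4.35 against 1.70, 0.83 and 3.05, a difference of -5.89 ± 0.54 (adjusted p = 0.00842). Lbp, a secreted protein that binds bacterial lipopolysaccharide, differed by -3.90 ± 0.42 (adjusted p = 0.0115).

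Both called claudins of the tight junction were lower in the SVZ. Cldn2, a claudin that forms paracellular cation channels in choroid plexus, was at -2.10, -2.23 and -2.24 in the SVZ and at 2.06, 1.82 and 2.55 in the hippocampus. The spread within each region was small beside the difference of -4.33 ± 0.43 (adjusted p = 0.00892). Cldn1, another barrier claudin, was at -4.77, -6.01 and -5.36 (well above background on 2 of 3 SVZ arrays) against 1.90, -0.34 and 2.33 and differed by -6.68 ± 0.75 (adjusted p = 0.013). Cldn3, a further claudin of the list, was at 1.13, 1.35 and 1.29 against 0.58, 0.76 and 0.30 and was not called (0.71 ± 0.33, adjusted p = 0.49).

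Membrane proteins of the list followed. Tmem72, a transmembrane protein, was at -5.52, -8.17 and -8.23 in the SVZ, where it was well above background on 1 of 3 arrays, and at 3.55, 2.32 and 4.27 in the hippocampus, a difference of -10.69 ± 1.34 (adjusted p = 0.019). With so dim a signal in the SVZ its size depends on the background correction. With normexp, another correction, run here with an offset of 50 added to the signal, the difference was -7.15. Such an offset by itself makes log2 differences of dim signals smaller. The prolactin receptor gene Prlr differed by -3.96 ± 0.58 (adjusted p = 0.0368), with all 3 of its probes in the same direction. Clic6, of the intracellular chloride channel family, differed by -3.67 ± 0.52 (adjusted p = 0.0322), and Calml4, a calmodulin-like protein, by -4.91 ± 0.59 (adjusted p = 0.0167). Several members that define the epithelium separated the regions and missed the threshold. Folr1, the folate receptor, was at 0.21, -0.54 and -0.60 against 2.97, 1.87 and 4.72 (adjusted p = 0.0896). Kcne2, a potassium channel subunit of the apical membrane, was at -3.17, -4.22 and -4.40 against 0.90, -0.84 and 1.25 (adjusted p = 0.0552). The water channel gene Aqp1 was well above background on 1 of 3 SVZ arrays and on all hippocampal arrays, where it varied widely at -2.64, -4.35 and 1.57 (adjusted p = 0.206). Tmem72 lost its call without SVZ B, SVZ C, hippocampal A or hippocampal C, Prlr and Clic6 without any 1 of the SVZ arrays or hippocampal A, and Cldn1 and Lbp without hippocampal A. Over the list, 4 of the 28 genes passed with hippocampal A left out, 6 with SVZ B or SVZ C left out, and 2 (Igf2 and Cldn2) with the 6 Sox2-GFP arrays alone.

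**Figure D2:**
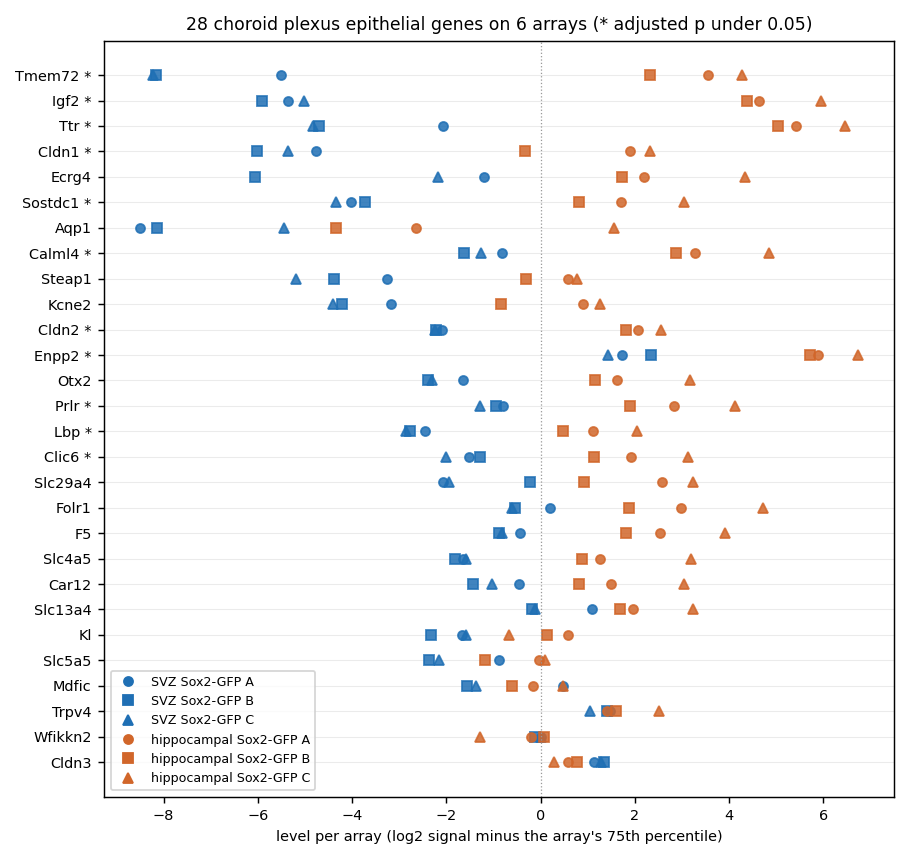
Levels of 28 choroid plexus epithelial genes on each SVZ (blue) and hippocampal (orange) array, ordered by the difference, with the log2 level on the x axis, marker shape for replicate A, B or C and asterisks for the 11 called genes. For 23 genes all 3 orange markers lie to the right of all blue ones, and hippocampal C (orange triangle) is the rightmost of the hippocampal arrays for 25.

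Transcription factors, secreted ligands and other genes of this epithelium and its embryonic source were measured in a list of dorsal midline and cortical hem factors. Of 23 tested, 2 were called lower in the SVZ (0.354% of all genes), Lmx1a and Ttr, and none higher. Ttr is shared with the choroid plexus list. The median difference was -0.84, with 16 members lower in the SVZ (45.6% of all genes) and 7 higher. On the lower side 11 members did not overlap (8.1% of all genes), and on the higher side 1, Dkk3 (8.83%). Dkk3 was at 0.84, 1.28 and 1.43 in the SVZ and at -0.76, 0.02 and -5.2 in the hippocampus (adjusted p = 0.41). Lmx1a, a LIM homeodomain factor of the cortical hem and choroid plexus, was at -8.75, -8.06 and -8.11 in the SVZ, where no array was well above background, and at -1.83, -1.62 and -0.90 in the hippocampus. It was at least 26.1-fold higher in the hippocampal cells, taking the dimmest measurable signal on each SVZ array as the limit (adjusted p = 0.00116). The limit holds for the scanner's own background correction. With normexp and its offset of 50 the fitted difference was -2.63, under that limit. Otx2, the homeodomain factor required for choroid plexus development, was at -1.65, -2.38 and -2.30 against 1.62, 1.16 and 3.16 and was not called (-4.09 ± 1.10, adjusted p = 0.238). Its relative Otx1 differed by -1.92 ± 0.35 (adjusted p = 0.0808) and Msx1, a target of BMP signals, by -1.94 ± 0.38 (adjusted p = 0.1). The hem ligand gene Bmp4 was at -1.83, -2.47 and -3.30 in the SVZ and at 0.26, 1.28 and 2.61 in the hippocampus (adjusted p = 0.145). Markers of choroid plexus moved with the members that were lower in the SVZ, and their part in the values was not tested.

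Because Otx and Lmx factors bind short homeodomain sites, the 250 bases before the RefSeq starts (GRCm38.p6) of the called genes were read for TAATCC, the core of OTX sites, and for the homeodomain core TAATTA, on both strands. Counted by gene, with a match before any of its starts, TAATCC was present in 5 of the 44 genes called lower that have an entry (11.4%), against 7.21% of all genes. TAATTA was present in 4 (9.09%) against 5.65%. The 44 genes had 65 starts, and the 27025 genes in all had 32851. Counted by start, the shares lay closer, at 7.69% against 6.25% for TAATCC and 6.15% against 4.84% for TAATTA. For the genes called higher, TGACAG, the core of MEIS sites, was searched because Meis1 was among them, and 1 of 4 with an entry held it against 18% of all genes. The sequences below are shown for Igf2, the gene with the lowest adjusted p (the first of its 4 starts by coordinate), for Abca4, which holds TAATTA and, on the other strand, TAATCC, for the tight junction gene Cldn1, which holds TAATTA, and for Anln, which holds TGACAG. Each runs 5′ to 3′ toward the start of its gene with matches in capitals, and Igf2 has none in this window. A match describes the letters and shows no binding.
Igf2, chr7:142657497-142657746 (minus strand): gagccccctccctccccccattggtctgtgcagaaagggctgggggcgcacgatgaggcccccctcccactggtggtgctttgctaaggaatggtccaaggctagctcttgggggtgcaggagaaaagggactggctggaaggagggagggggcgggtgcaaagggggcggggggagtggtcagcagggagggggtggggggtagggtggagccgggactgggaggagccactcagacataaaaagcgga
Abca4, chr3:122044210-122044459 (plus strand): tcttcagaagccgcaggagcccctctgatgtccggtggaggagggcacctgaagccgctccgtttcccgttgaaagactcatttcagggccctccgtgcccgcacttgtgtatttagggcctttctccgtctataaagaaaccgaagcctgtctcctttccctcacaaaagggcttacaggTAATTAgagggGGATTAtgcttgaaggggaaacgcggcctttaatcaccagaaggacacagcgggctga
Cldn1, chr16:26371840-26372089 (minus strand): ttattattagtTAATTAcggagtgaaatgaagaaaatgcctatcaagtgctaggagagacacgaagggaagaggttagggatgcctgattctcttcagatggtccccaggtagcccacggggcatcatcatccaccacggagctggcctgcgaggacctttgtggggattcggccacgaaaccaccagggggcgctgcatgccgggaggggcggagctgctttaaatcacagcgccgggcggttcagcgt
Anln, chr9:22389207-22389456 (minus strand): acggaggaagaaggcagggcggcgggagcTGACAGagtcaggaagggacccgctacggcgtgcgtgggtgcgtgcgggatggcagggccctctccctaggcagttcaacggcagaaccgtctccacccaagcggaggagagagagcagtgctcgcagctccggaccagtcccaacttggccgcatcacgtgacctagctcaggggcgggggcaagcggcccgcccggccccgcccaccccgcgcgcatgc

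Motile cilium and ependymal genes leaned to the hippocampal side with a single call (0.354% of all genes were called lower). The median difference of the 31 tested was -0.87, with 25 lower in the SVZ (45.6% of all genes) and 6 higher. Of these, 14 did not overlap on the lower side (8.1% of all genes) and 1 on the higher (8.83%). Mlf1 was called, at -4.95, -6.25 and -5.57 in the SVZ and at 0.16, -1.18 and 1.34 in the hippocampus (-5.69 ± 0.67, adjusted p = 0.0152). The call was lost without SVZ B or hippocampal A. Foxj1, which switches on the program for motile cilia, was at -3.46, -2.32 and -1.81 against 1.40, 1.92 and 1.42 and missed the threshold (-4.11 ± 0.72, adjusted p = 0.0678). Other members differed little: the axonemal dynein Dnah9 was at 5.58, 4.31 and 4.69 against 4.43, 4.48 and 4.62, with 2 of its 4 probes in each direction, and the tektin Tekt4 was within 3.44 to 3.82 on all 6 arrays. Choroid plexus epithelium also carries cilia. Its list was higher in the same samples, and its part in these values was not tested.

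Within the IGF system, Igf2 was the single call among 19 genes tested (0.354% of all genes were called lower), and the median difference was -0.23. The binding protein gene Igfbp7 was at -4.67, -2.06 and -2.03 in the SVZ and at 1.39, 1.26 and 2.78 in the hippocampus, non-overlapping and short of the threshold (-4.73 ± 0.86, adjusted p = 0.0763). Igfbp2, a binding protein secreted into cerebrospinal fluid, was at 2.46, 2.17 and 2.07 against 2.99, 2.65 and 4.39 (adjusted p = 0.441). The receptor genes were not called, and their probes disagreed. Igf1r, the receptor through which both ligands signal, was at 2.37, 1.56 and 1.70 against 1.34, 1.14 and 1.46 (adjusted p = 0.748), a direction that 1 of its 4 probes gave, and Insr, the insulin receptor, was at 2.23, 1.72 and 1.59 against 0.92, 1.11 and 1.22 (adjusted p = 0.436), a direction that 1 of its 2 probes gave. Igf2r, the receptor that clears Igf2, overlapped between the regions (adjusted p = 0.907). H19, the non-coding RNA next to Igf2 in the genome, was at 0.69, -0.73 and 0.40 against 0.71, 0.59 and 0.43 with the regions overlapping (adjusted p = 0.738).

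The other genes of the 12 largest differences lower in the SVZ had varied roles. Of 346 solute carrier (Slc) genes tested, 4 were called lower (0.354% of all genes). Slc4a10, a sodium-dependent bicarbonate transporter, was at -5.31, -4.76 and -7.26 in the SVZ and at 2.55, 1.29 and 3.999 in the hippocampus (-8.39 ± 0.86, adjusted p = 0.0107). Slc6a20a, a proline transporter, differed by -7.16 ± 0.87 (adjusted p = 0.0169), and Abca4, a lipid and retinoid transporter, by -7.94 ± 0.98 (adjusted p = 0.0176). On the SVZ arrays, Slc4a10 was well above background on 2 and each of the others on 1. Cd59b, an inhibitor of complement, was at -6.03, -6.38 and -6.39 against 0.84, 1.19 and 3.29, with 1 of 3 SVZ arrays well above background (-8.04 ± 0.75, adjusted p = 0.00842). Sulf1, an extracellular enzyme that edits heparan sulphate, differed by -7.75 ± 0.85 (adjusted p = 0.0117). For 2 further genes no SVZ array was well above background: Rab11fip1, an effector of recycling endosomes, was at least 57.3-fold higher in the hippocampal cells (adjusted p = 0.019), and the basement membrane gene Fras1 at least 23.5-fold (adjusted p = 0.0476). With the normexp background their fitted differences were -3.75 and -2.69, under those limits, and neither was called. The dim SVZ signals made the other sizes depend on the background correction and its offset too. With normexp the difference was -6.16 for Slc4a10, -4.96 for Slc6a20a, -4.52 for Abca4, -5.58 for Cd59b and -5.06 for Sulf1, all still called. Of all 88 genes called lower, 23 had only such a bound, 28 carried clone or gene-model names, and in 68 hippocampal C was the highest of the 6 arrays. Slc4a10 and Sulf1 lost their calls without hippocampal A, and Slc6a20a, Abca4, Rab11fip1, Ttr and Calml4 without hippocampal A, SVZ B or SVZ C. Fras1 kept its call in 1 of the 6 sets with 1 array left out.

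**Figure D3:**
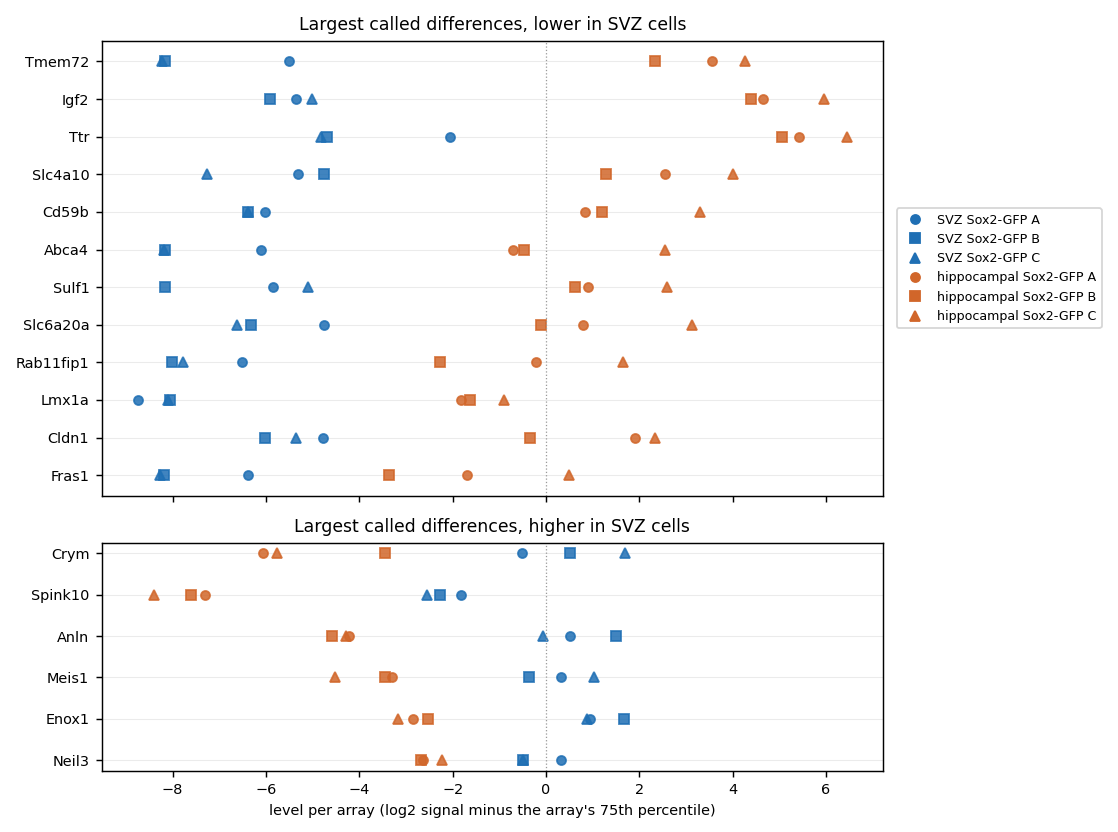
Levels of the 12 genes with the largest called differences lower in the SVZ (upper panel) and the 6 higher (lower panel), with the log2 level of each array on the x axis, SVZ in blue, hippocampus in orange and marker shape for replicate. No blue and orange markers overlap within a gene, and hippocampal C (orange triangle) is the highest array in all 12 genes of the upper panel.

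Among the 11 genes higher in the SVZ, 6 had names other than clones or gene models. Meis1, a homeodomain partner of subpallial and olfactory bulb lineages, was at 0.33, -0.36 and 1.03 in the SVZ and at -3.30, -3.46 and -4.53 in the hippocampus (4.10 ± 0.48, adjusted p = 0.0153). Crym, a thyroid hormone-binding protein, was at -0.52, 0.52 and 1.70 against -6.06, -3.44 and -5.76 (5.65 ± 0.78, adjusted p = 0.0296). Enox1, a cell-surface oxidase, was at 0.93, 1.67 and 0.88 against -2.86, -2.53 and -3.18 (4.02 ± 0.38, adjusted p = 0.00873). These 3 genes separated the regions on every array. Anln, an actin-binding protein of the cytokinetic ring that is also expressed in myelinating glia, was at 0.51, 1.50 and -0.05 against -4.23, -4.59 and -4.29 (5.02 ± 0.43, adjusted p = 0.00751). It was higher still on the DCX-DsRed arrays, at 4.44, 4.05 and 4.66. Spink10, a protease inhibitor gene, was well above background on no hippocampal array and at least 9.94-fold higher in the SVZ (adjusted p = 0.00237), while the fitted difference with the normexp background was 2.03, under that limit. Neil3, a DNA repair glycosylase of dividing cells, differed by 2.29 ± 0.36 (adjusted p = 0.0487) and lost its call whichever of the 6 arrays was left out. Crym lost its call without SVZ B, SVZ C, hippocampal A or hippocampal C, and Meis1 without SVZ A or hippocampal A.

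Factors of the subpallial and olfactory bulb lineage gave 1 call among 22 tested, Meis1, where 0.0442% of all genes were called higher. Their median difference was 0.27, and 5 had an unadjusted p under 0.05 in limma (10.8% of all genes). On the higher side 5 did not overlap (8.83% of all genes), and on the lower side 0 (8.1%). Meis2, a close relative of Meis1, was at 3.16, 3.80 and 1.12 in the SVZ and at -0.41, -0.23 and -5.28 in the hippocampus, without overlap (4.66 ± 1.40, adjusted p = 0.281). The early subpallial determinant Gsx2 overlapped between regions, at -1.92, -1.31 and -1.46 against -1.87, -1.68 and -1.83. Among pallial and hippocampal factors, none of 26 tested was called by limma (2 had an unadjusted p under 0.05), and the median difference was 0.18. The list's median level was -1.03, -0.60 and -0.73 on the SVZ arrays, -0.47 and -0.35 on hippocampal A and B, and -2.07 on hippocampal C. Hippocampal A and B thus lay above the SVZ arrays and hippocampal C below them. Emx1, a pallial homeodomain factor, was at 1.84, 1.30 and 1.75 in the SVZ and at 1.59, 1.61 and 1.25 in the hippocampus. Prox1, the factor of dentate granule neurons, was at 0.56, 0.99 and 0.53 against 0.13, 1.09 and -0.62. The member with the smallest p was Nr2f2, a nuclear receptor of caudal forebrain, at -3.17, -4.15 and -2.67 against -0.36, -0.66 and 0.76 (-3.24 ± 0.61, adjusted p = 0.0883).

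Genes of activated stem cells and dividing progenitors were not called, although several separated the regions. Of 30 tested, 25 were higher in the SVZ (54.4% of all genes), with a median difference of 0.54, and 8 did not overlap on that side (8.83% of all genes) against 2 on the other (8.1%). The list's median level was alike on the SVZ arrays (-0.89, -0.76 and -0.91) and on hippocampal A and B (-0.85 and -0.93) and was -1.84 on hippocampal C, which lay below both A and B for 25 of the 30. In limma 5 had an unadjusted p under 0.05. Hmgb2, a chromatin protein of dividing cells, was at 4.04, 4.20 and 3.83 in the SVZ and at 1.81, 2.48 and 1.74 in the hippocampus, short of the threshold (2.02 ± 0.32, adjusted p = 0.0517). Top2a, the topoisomerase of the G2 and M phases, was at -0.23, 0.21 and -1.51 against -2.83, -3.74 and -4.23 (3.09 ± 0.63, adjusted p = 0.114). Mki67, the proliferation marker, was at 2.62, 1.64 and 1.38 against 0.61, -0.10 and -1.01 (2.05 ± 0.50, adjusted p = 0.189). The replication genes Pcna and Mcm6 overlapped between regions: Pcna was at 1.00, 0.02 and -0.97 against -0.51, -0.11 and 0.65, and Mcm6 was between -0.95 and -0.65 on all 6 arrays. Ccnd1, a G1 cyclin, lay the other way at -0.83, -0.81 and -1.02 against 0.35, 0.80 and 1.22 (-1.68 ± 0.41, adjusted p = 0.19).

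Neuroblast and immature neuron genes were high on SVZ A and B and low on SVZ C. The median level of the 31 genes tested was 1.55 and 1.64 on SVZ A and B, -0.76 on SVZ C, and -0.73, -0.49 and -2.02 on hippocampal A, B and C. SVZ C lay below both A and B for 25 of the 31, against 37.2% of all genes. No member was called by limma (0.398% of all genes), and 9 had an unadjusted p under 0.05 (10.8% of all genes). The list's median difference was 0.98, with 28 of the 31 higher in the SVZ (54.4% of all genes). On the higher side 9 did not overlap (8.83% of all genes), and on the lower side 0 (8.1%). Dcx, the microtubule-binding protein of migrating neuroblasts, was at 2.60 and 3.07 on SVZ A and B and at -2.34 on SVZ C, and at -0.17, -0.75 and -2.85 in the hippocampus, so the regions overlapped (2.36 ± 1.46, adjusted p = 0.604). Tubb3, a neuronal tubulin, followed the same order at 1.86, 2.32 and -0.36 against -0.0022, -0.17 and -0.71. Stmn1, a regulator of microtubule dynamics, stayed above the hippocampal arrays on all 3 SVZ arrays, at 3.52, 3.74 and 2.07 against -0.25, 0.81 and -2.92 (3.90 ± 0.90, adjusted p = 0.159). Of 19 GABA neuron genes, 9 were below both SVZ A and B on SVZ C (37.2% of all genes) and 4 above (28.4%), so the list as a whole stayed near those shares. None was called by limma (2 had an unadjusted p under 0.05). The GABA synthesis genes Gad1 and Gad2 were among the 9. Gad1 was at 0.84 and 1.37 on SVZ A and B and at -5.62 on SVZ C, against -3.55, -3.84 and -6.54, and Gad2 was at 1.52, 2.06 and -0.83 against -2.93, -3.51 and -4.24 (4.48 ± 1.10, adjusted p = 0.19). The olfactory bulb interneuron factor Etv1 was at 0.49 and 1.07 on SVZ A and B and at -5.33 on SVZ C. Of the 22 subpallial and olfactory bulb lineage factors tested, Etv1 among them, 10 were below both on SVZ C and 4 above.

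Array by array, the genes farthest apart on SVZ C were described without a test. Those lowest on C against both A and B were Aff1 (1.61 and 1.28 on A and B, -8.10 on C, for the brightest of its 3 probes), Fbxw8, Mir124a-1hg, Dlx6os1, Parp1 and Crmp1. Of these only Dlx6os1 was well above background on C, so the values of the others there are bounds. The Mir124a-1hg transcript hosts a microRNA of neurons, Dlx6os1 is a non-coding RNA at the Dlx5 and Dlx6 locus of GABA neurons, and Crmp1 acts in axon guidance. Dlx6os1 was at 2.65 and 3.15 on SVZ A and B and at -4.43 on C. Among those highest on SVZ C were Defb42, Cldn12, Procr, Chp2 and Mterf2, with gaps of 6.42 to 8.17. In all, 785 genes lay more than 2 below both other SVZ arrays on C, and 635 more than 2 above.

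Hippocampal C stood apart in astrocyte genes and in several other lists. The median level of the 34 quiescent stem cell and astrocyte genes was 2.08, 2.54 and 2.93 on the SVZ arrays, 2.26 and 2.48 on hippocampal A and B, and 0.21 on hippocampal C, which lay below both A and B for 26 of 34 against 56.7% of all genes. It lay below both for 18 of 20 oligodendrocyte precursor, 20 of 25 endothelial and mural, 19 of 24 myelinating oligodendrocyte and 24 of 31 neuroblast genes as well. None of the 34 quiescent stem cell and astrocyte genes was called by limma (3 had an unadjusted p under 0.05), and their median difference was 0.76. Slc1a3, a glutamate transporter of astrocytes and radial stem cells, was at 3.15, 2.94 and 4.18 in the SVZ, at 2.53 and 3.08 on hippocampal A and B and at -7.17 on C. On hippocampal C Slc1a3 was not well above background, so its value there is a bound. Aqp4, the astrocytic water channel, was at 3.27 and 3.53 on hippocampal A and B and at -1.81 on C, and Gja1, the gap junction protein connexin, at 1.56, 2.08 and -5.70. Other members of the list did not share the drop: Apoe was at 4.37, 4.20 and 4.56 on hippocampal A, B and C and Clu, a secreted chaperone, at 4.14, 3.85 and 4.70. Among the lowest genes on hippocampal C besides Slc1a3 were Gpm6b (1.77 and 1.04 on A and B, -7.89 on C), Rasa3, S1pr1 and Tomm5, and the highest were Glt8d2, Plag1, Mien1, Riox1, Ormdl1 and Fgf16. Gpm6b, Rasa3, S1pr1 and Tomm5 were not well above background on hippocampal C either. On this array 3019 genes lay more than 2 below both A and B and 693 more than 2 above. With hippocampal C left out, 97 genes were called, 63 of them among the 99, and 11 choroid plexus genes passed.

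**Figure D4:**
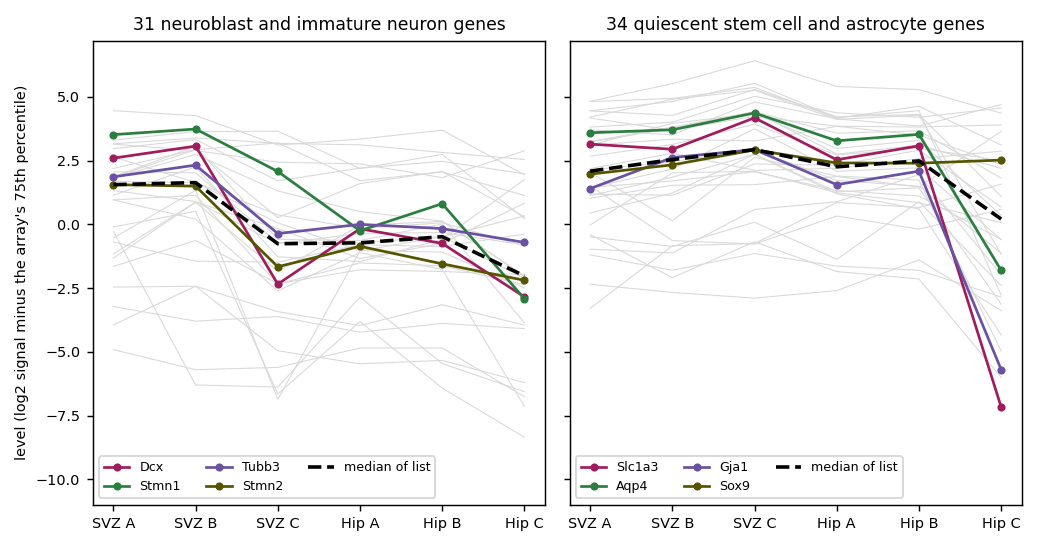
Levels (y axis, log2) of 31 neuroblast and immature neuron genes (left) and 34 quiescent stem cell and astrocyte genes (right) on the 6 arrays (x axis); grey lines join the values of 1 gene, coloured lines are named genes and the dashed line is the list's median. The left median falls from 1.64 on SVZ B to -0.76 on SVZ C, and the right median from 2.48 on hippocampal B to 0.21 on hippocampal C.

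Markers of other cell types were seldom called, as were genes in general (0.398% of all genes). No gene was called among 20 oligodendrocyte precursor, 20 microglia and macrophage, 25 endothelial and mural, 22 meningeal and vascular fibroblast, 5 red blood cell and 21 mature excitatory neuron genes, with medians from -0.52 to 0.36. In limma the numbers with an unadjusted p under 0.05 were, in that order, 3, 2, 3, 7, 0 and 2, against 10.8% of all genes. The fibroblast list leaned to the hippocampal side. Of its 22 genes, 6 did not overlap on the lower side (8.1% of all genes) and 1 on the higher (8.83%). The microglial gene Tmem119 was at -1.40, -1.37 and -1.58 in the SVZ and at 0.02, 0.64 and -0.78 in the hippocampus (adjusted p = 0.253). Vtn, the vitronectin gene of pericytes, was at -3.87, -4.73 and -5.39 against -1.80, 0.26 and 0.18 (adjusted p = 0.0558). Myelinating oligodendrocyte genes had a median difference of 0.92, with medians of 1.11, 1.46 and 0.06 on the SVZ arrays and 0.24, 0.59 and -2.02 on the hippocampal arrays.

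Signalling pathways of the niche gave no call (0.398% of all genes were called) in 7 lists. These were 18 hedgehog, 41 Wnt, 31 BMP and TGF beta, 25 Notch, 23 FGF and EGF family, 44 axon guidance and 34 extracellular matrix genes, with medians from -0.15 to 0.36. The numbers with an unadjusted p under 0.05 in limma were 3, 4, 6, 1, 0, 6 and 6 in that order, against 10.8% of all genes. In the FGF and EGF list 20 of 23 genes were higher in the SVZ, against 54.4% of all genes. Hippocampal C was below both A and B for 18 of the 23, and the list's median was -0.18, 0.53 and -0.11 on the SVZ arrays and -0.18, -0.26 and -0.80 on the hippocampal arrays. Its smallest p belonged to Fgfr3, a receptor of astrocytes and stem cells, at 1.45, 1.70 and 2.06 against 1.32, 1.11 and -0.59 (adjusted p = 0.486).

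Immediate early and dissociation stress genes had a median difference of -0.65, and 26 of 33 tested were lower in the SVZ (45.6% of all genes). There was no call by limma (0.398% of all genes), and 10 had an unadjusted p under 0.05 (10.8%). On the lower side 9 did not overlap (8.1% of all genes), and on the higher side 2 (8.83%). The list's median level was 0.10, 0.26 and 0.75 on the SVZ arrays and 1.23, 1.40 and 1.40 on the hippocampal arrays. Sgk1, a kinase induced by glucocorticoid and stress, was at -1.09, -2.87 and -2.54 against 1.10, 0.48 and 2.18 (-3.42 ± 0.58, adjusted p = 0.0611). The part of handling in the other differences was not tested. Metabolic lists, of 41 respiratory chain, 21 glycolysis and 25 fatty acid oxidation genes, held no call in limma (0.398% of all genes). In that order, 8, 3 and 5 genes had an unadjusted p under 0.05 (10.8% of all genes), and median differences were -0.41, -0.37 and -0.12. On the lower side 9, 4 and 5 genes did not overlap (8.1% of all genes), and on the higher side 2, 1 and 1 (8.83%). Of the respiratory chain genes 31 were lower in the SVZ (45.6% of all genes). The respiratory chain median was 0.97, 0.34 and 0.78 on the SVZ arrays, 0.84 and 0.86 on hippocampal A and B and 1.55 on hippocampal C, so SVZ A lay above hippocampal A and B. The glycolysis medians also overlapped, at 1.17, 1.37 and 1.63 against 1.74, 1.45 and 1.90. Of the fatty acid oxidation genes 14 of 25 were lower in the SVZ. Acsl1, which activates long-chain fatty acids, was at -3.05, -5.03 and -1.86 against 1.47, 0.57 and 1.88 (adjusted p = 0.0568). The median was -0.23 for 38 ribosomal protein genes, for which hippocampal C stood at 3.06 and the other arrays between 1.94 and 2.18. Among 45 chromatin regulators, 35 were higher in the SVZ (54.4% of all genes) with a median of 0.35, and 24 MHC and interferon genes had a median of -0.06. Neither of these lists held a call in limma (0.398% of all genes), with 3 and 9 genes at an unadjusted p under 0.05 (10.8% of all genes). Of the 24 MHC and interferon genes, 5 did not overlap on the lower side (8.1% of all genes) and 4 on the higher (8.83%).

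**Figure D5:**
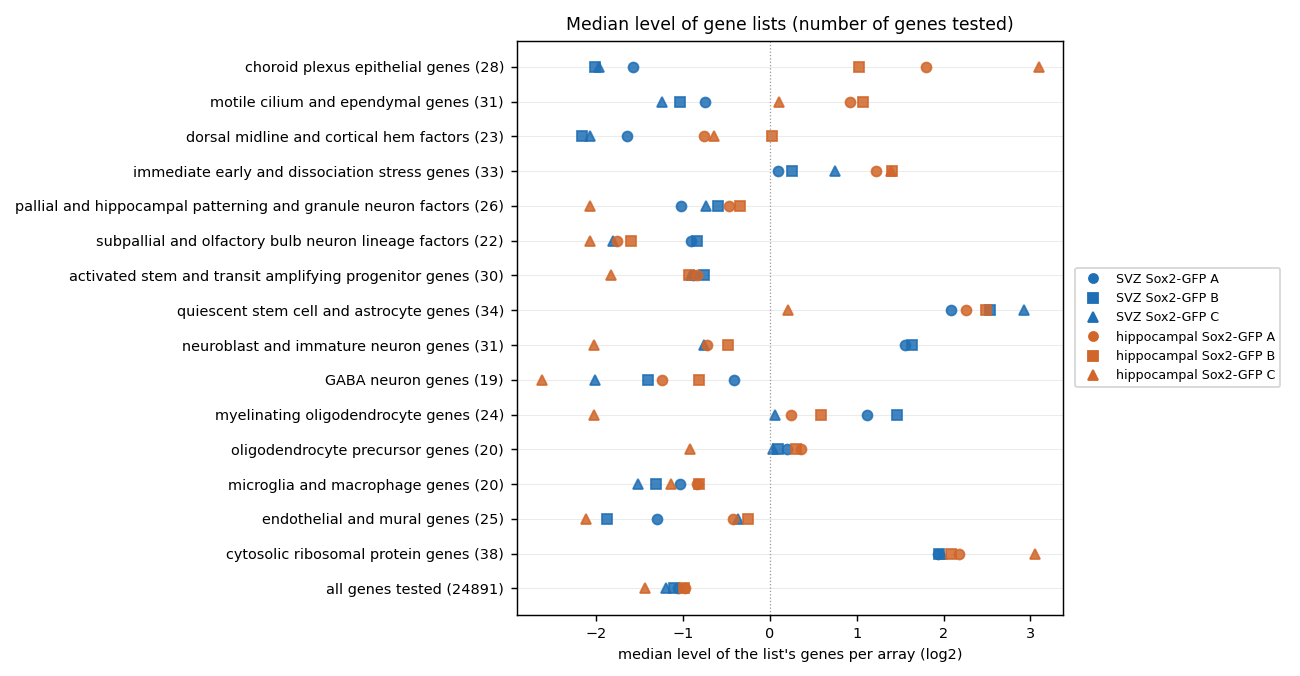
Median level (x axis, log2) of 15 gene lists and of all genes on each SVZ (blue) and hippocampal (orange) array, with the number of genes tested in parentheses and marker shape for replicate. The choroid plexus list separates the regions widely, hippocampal C (orange triangle) lies apart in the astrocyte and myelin lists, and SVZ C (blue triangle) lies with the hippocampal arrays in the neuroblast list.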

How the data were processed

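RNA of sorted cells was measured on 9 arrays, 6 of them compared here. Per the file headers, the authors' deposited intensity values are processed signals from Agilent Feature Extraction, background-subtracted and not normalized between arrays. The submitters' processing notes name limma. The members and gene lists were chosen with earlier results of these data known. Control and outlier spots were left out, spots of a probe averaged, and log2 taken minus each array's 75th percentile. Flags for spots well above background are those of the deposited files. A probe was kept where this flag was set on 3 or more of the 9 arrays, and the brightest probe stood for its gene. Names came from RefSeq (GRCm38.p6) where an accession matched (22664 probes). limma 3.58.1 fitted the 3 groups over 9 arrays (lmFit, eBayes, Benjamini-Hochberg, threshold 0.05), tested on simulated data. The number of arrays limits the precision. Named genes were Sox2, Dcx and Igf2, up to 12 largest called, non-overlapping differences each way, up to 3 called members of each list (else the smallest p), and the 6 genes farthest apart each way on each C array. Further members of lists were named after their values were seen. Some genes that the rule names are not reported here.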

Additional observations from a re-analysis of the deposited data

How the results depend on the processing

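The main setting called 99 genes (88 lower and 11 higher in the SVZ), 11 of them of the choroid plexus list. With only the 6 Sox2-GFP arrays these counts were 8 (7 and 1) and 2. With replicate letter as a block they were 13 (9 and 4) and 1. The labels do not say whether arrays of the same letter were prepared together. Deviations of same-letter arrays from their group means correlated at -0.0364, 0.0154 and -0.0147, which with 3 arrays per group cannot settle it. A fixed slide block gave 2128 (773 and 1355) and 21, a random one 17 higher, and slide 3 alone 0 (0 and 0) and 0, with 4205 unadjusted p under 0.05. Normexp background with an offset of 50 gave 163 (145 and 18) and 17. Array weights gave 343 (303 and 40) and 17, and the median over a gene's probes 160 (147 lower). Quantile normalization gave 23 higher and centring on the array median 56 lower. Leaving out 1 array gave 25 to 97 calls, 16 to 90 lower, 6 to 12 higher and 4 to 13 of the choroid plexus list. Leaving out both C arrays gave 5 of that list. Igf2bp1 went from -0.02 to 1.67 (adjusted p = 0.0425) with the fixed slide block. The cause of these changes was not tested, beyond the fewer arrays in some. Of 640 list medians under alternatives, 54 moved by more than the spread between arrays. Signal near background limits the lowest values, which are bounds.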
